A study of Mus musculus with 11 samples.

Results

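The 10 genes described are members of the Notch pathway: the receptors *Notch1*, *Notch2* and *Notch3*, the ligands *Jag1*, *Jag2* and *Dll1*, the receptor-modifying glycosyltransferase *Lfng*, the DNA-binding partner *Rbpj*, and the target repressors *Hes1* and *Hey1*. They were chosen by name as the core of the pathway, and all 10 were among the 24421 genes of the deposited count tables. Of those 24421 genes, 14045 passed a filter on low counts and were tested, and the 10 members were among them. Each member was followed through 7 RNA-seq libraries and through 4 lists of open chromatin regions from ATAC-seq, an assay in which a transposase cuts accessible DNA.

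A Notch receptor is activated by a Jagged or Delta-like ligand on a neighbouring cell. The receptor is then cut by a metalloprotease and by gamma-secretase, and its freed intracellular domain joins RBPJ and a Mastermind protein on DNA to switch on genes such as those of the Hes and Hey repressors. In epidermis the pathway is known for helping basal keratinocytes leave the basal layer and begin suprabasal differentiation.

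The study asked how the transcription factor GRHL3 acts in keratinocytes at the edge of a healing skin wound. The mice, labelled C57BL/6 and given as C57BL/6J in the study's methods, were males and females of 8 weeks. Punch wounds of 4 mm were left for 3 days before keratinocytes were sorted as CD49F-positive cells negative for CD45, CD31 and TER119. They came from the 1 mm wound margin, or from unwounded skin away from it. The WT controls carried *Krt14*-Cre, as did the mice labelled GRHL3 KO, in which that Cre removed a floxed part of *Grhl3* from cells with *Krt14* promoter activity, so other skin cells kept the gene. The mutant group is called cKO in what follows.

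RNA was measured in 2 WT unwounded, 2 WT wounded, 1 cKO unwounded and 2 cKO wounded libraries, and open chromatin with 1 list for each of the 4 conditions. Counts on genes ran from 13497283 in the cKO unwounded library to 16807451 in WT unwounded replicate 2. Levels are given as CPM, the counts of a gene per 1000000 counts on all genes. Whether libraries with the same number came from the same mouse is not stated, and p-values measure only the spread between these libraries.

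The deleted gene itself came to 122 and 83.2 CPM in the WT unwounded libraries and 110 and 90.0 CPM in the WT wounded libraries. In the libraries labelled cKO, *Grhl3* was at 76.2 CPM unwounded and at 116 and 104 CPM wounded. The cKO wounded values lay within the WT range and the cKO unwounded value was the lowest of the 7, but it belongs to a lone library, so the counts did not separate the genotypes. They cover the whole gene and not only its deleted part, so within these data the genotype of a library is known from its label alone, and every cKO direction given below rests on that label.

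The lone cKO unwounded library stood apart from the other 6. It held 14854 counts of *Xist*, the RNA of the inactive X chromosome, and 0 counts summed over *Ddx3y*, *Uty*, *Eif2s3y* and *Kdm5d* of the Y chromosome, whereas *Xist* had 3 to 32 counts and the Y-linked sum was 2580 to 3589 in the others. In contrasts with cKO unwounded keratinocytes, sex and library therefore cannot be told apart from genotype, nor from wounding within cKO. For *Jag2* and *Hes1* the contrast over both genotypes is given with and without this library. The label gives this library the number 2, although the deposited name gives it another number.

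The sort was checked on marker genes. The summed level of 6 basal keratinocyte genes was 30890 to 44746 CPM, with *Krt14* the most abundant by mean at 12190 to 19442 CPM (in the cKO unwounded library *Krt5* was higher). Against this, 12 endothelial genes summed to 0.889 to 34.2 CPM, 8 leukocyte genes to 12.5 to 51.4 CPM, 6 fibroblast genes to 11.04 to 46.6 CPM, 5 melanocyte genes to 1.07 to 9.55 CPM, 6 Merkel cell genes to 1.36 to 7.15 CPM and 5 erythroid genes to 0 to 0.910 CPM. By mean level the most abundant of these were *Vwf* at up to 7.70 CPM, *Cd74* at up to 29.5 CPM, *Col3a1* at up to 16.8 CPM, *Dct* at up to 4.74 CPM, *Krt18* at up to 2.94 CPM (with *Krt8* at 4.38 CPM in WT wounded replicate 1) and *Alas2* at up to 0.910 CPM. *Hba-a1*, *Hba-a2*, *Hbb-bs* and *Hbb-bt* were at 0 in all 7 libraries, as were *Atoh1*, *Krt20* and *Sox2* of the Merkel cell list and *Cd3e* of the leukocyte list. The mural and smooth muscle list summed to 72.6 to 156 CPM, of which *Cspg4* alone, a gene that keratinocytes also use, gave 63.6 to 154 CPM. A hair follicle list of 8 genes reached 1371 to 2877 CPM, mainly through *Krt79* at 858 to 2038 CPM, and a granular list of 5 genes reached 59.4 to 120 CPM, mainly through *Ivl* at 36.5 to 73.7 CPM.

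Levels were set in order per length, as mean CPM per kilobase of exon over the 7 libraries. Exon length was the union of the exons of all annotated transcripts, 14232 bases for *Notch1* and 12750 for *Rbpj*. A gene whose main transcript is shorter than this union is given too low a level per kb. The order and the shares per length therefore depend on this choice. *Hes1* was highest at 93.7 ± 41.1 CPM per kb (SD, n = 7), and was the highest member per kb in each of the 7 libraries. *Jag1* at 47.6 ± 6.48, *Notch1* at 47.4 ± 3.80 and *Jag2* at 46.7 ± 5.23 CPM per kb did not differ beyond their spread over the 7 libraries. Within WT wounded libraries *Jag1* was above *Jag2*, at 56.6 ± 3.67 against 44.0 ± 2.12 CPM per kb (SD, n = 2). In WT unwounded libraries *Jag1* was below *Jag2*, at 43.9 ± 1.31 against 50.3 ± 5.11 CPM per kb (SD, n = 2). *Dll1* at 21.6 ± 2.02 and *Notch2* at 20.96 ± 1.24 CPM per kb were also level with each other. *Notch3* at 13.9 ± 1.87, *Lfng* at 9.05 ± 2.01 and *Rbpj* at 6.09 ± 0.565 CPM per kb followed. *Hey1* was last at 0.119 ± 0.0903 CPM per kb. Among all genes with a count, *Hes1* stood above 97.7% per length, *Notch1* above 95.3%, *Rbpj* above 64.6% and *Hey1* above 18.9%.

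**Figure D1:**
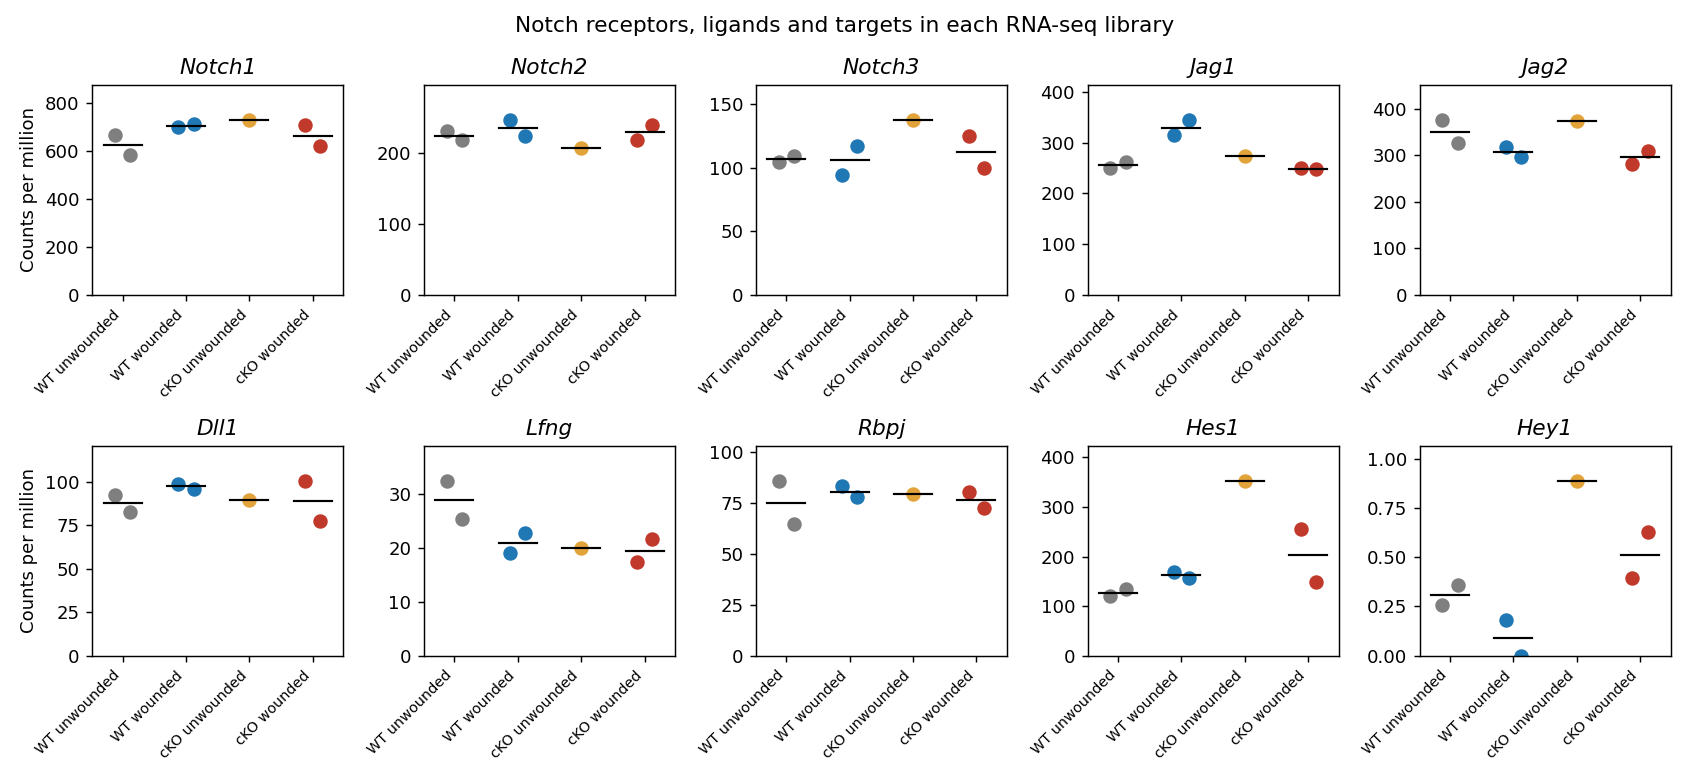
Each point is the level of a gene in an RNA-seq library, in CPM (vertical axes start at 0), and each black line is the mean of its group, for 2 WT unwounded, 2 WT wounded, 1 cKO unwounded and 2 cKO wounded libraries. *Jag1* is highest in both WT wounded libraries, at 315 and 345 CPM, and *Hes1* is highest in the cKO unwounded library, at 353 CPM.

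*Notch1*, the main receptor of epidermal cells above the basal layer (chr2:26457903-26516663, minus strand, mm10), was at 667 and 583 CPM in the WT unwounded libraries and at 699 and 712 CPM in the WT wounded libraries. It was at 730 CPM in the cKO unwounded library and at 708 and 622 CPM in the cKO wounded libraries. Both WT wounded libraries were above both WT unwounded ones, by a log2 fold change of 0.20 with a 95% interval of -0.13 to 0.53, and an adjusted p of 0.998 in edgeR's quasi-likelihood test. The cKO wounded libraries overlapped the WT wounded ones in range only through replicate 1, while replicate 2 was below them. Genes on the other strand overlap *Notch1*, so a part of its counts could be theirs.

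*Notch2*, a paralogous receptor (chr3:98013527-98150361, plus strand), ran from 207 CPM in the cKO unwounded library to 246 CPM in WT wounded replicate 1. Its groups overlapped in every contrast with 2 libraries a side, and it had the smallest relative spread of the members over the 7 libraries, with a coefficient of variation of 5.91%. *Notch3*, a receptor also known from smooth muscle (chr17:32120820-32166852, minus strand), ran from 94.4 CPM in WT wounded replicate 1 to 138 CPM in the cKO unwounded library. Its group means were 107 ± 3.16 CPM in WT unwounded, 106 ± 16.1 CPM in WT wounded and 112 ± 17.8 CPM in cKO wounded libraries (SD, n = 2 each), so the differences between means were smaller than the spread within a group. An antisense gene overlaps *Notch3*, and a strand setting for the counting is not given in the sources used, so reads of the pair may not be told apart.

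The receptors kept a steady makeup. Per length, *Notch1* gave 54.9% to 58.6% of the receptor level over the 7 libraries, *Notch2* gave 21.9% to 28.3% and *Notch3* gave 13.9% to 19.4%. *Notch4*, the receptor known from endothelium, gave at most 0.213%. It had 1 and 0 counts in the WT unwounded libraries, 24 and 9 in the WT wounded libraries, 9 in the cKO unwounded library, and 15 and 4 in the cKO wounded libraries. The endothelial list summed to 4.197 and 6.72 CPM, 34.2 and 22.1 CPM, 0.889 CPM, and 16.9 and 20.2 CPM in the same order, and its part in the *Notch4* counts was not tested.

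*Jag1*, a Jagged ligand found in epidermis and hair follicle (chr2:137081456-137116644, minus strand), was at 250 and 261 CPM in the WT unwounded libraries and at 315 and 345 CPM in the WT wounded libraries. It was at 274 CPM in the cKO unwounded library and at 249 and 249 CPM in the cKO wounded libraries. The WT wounded libraries were thus the 2 highest of the 7, and the cKO wounded libraries were close to the WT unwounded ones, from which they cannot be ranked, since the order depends on how libraries are scaled.

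In WT, *Jag1* was higher in wounded keratinocytes by a log2 fold change of 0.39 (SE 0.15, 95% interval 0.06 to 0.72), with an unadjusted P of 0.0224 and an adjusted p of 0.908 in edgeR's quasi-likelihood test. In wounded keratinocytes, *Jag1* was lower in cKO than in WT libraries by a log2 fold change of -0.38 (SE 0.16, 95% interval -0.71 to -0.05), with an unadjusted P of 0.0255 and an adjusted p of 1. Both contrasts use the same 2 WT wounded libraries, so high values there would enter both. Neither passed the test over all genes. Without WT wounded replicate 2, the library with the highest *Jag1* level, the values were 0.31 and -0.30, with unadjusted P of 0.135 and 0.146. The WT contrast had an unadjusted P of 0.104 without WT unwounded replicate 1 and 0.0761 without replicate 2, and without cKO wounded replicate 2 the latter contrast had an unadjusted P of 0.0791. Fitted values were higher in WT wounded than WT unwounded libraries and lower in cKO than WT wounded ones, as for *Jag1*, in 6 of 10 tested endothelial, 3 of 5 mural, 4 of 6 leukocyte, 2 of 4 melanocyte, 1 of 2 Merkel cell, 2 of 5 fibroblast and 3 of 8 hair follicle markers. The same held for 2 of 6 basal, 1 of 5 granular, 0 of 6 suprabasal and 0 of 1 erythroid markers. Of all 14045 tested genes, 7085 were fitted higher in the WT contrast and 7192 lower in the cKO contrast. The share of genes with both was not computed, and the shared WT wounded libraries by themselves tend to give opposite directions. Among the markers that followed were *Flt1*, at log2 fold changes of 4.44 and -1.86, *Acta2*, at 3.21 and -2.35, and *Cd74*, at 1.15 and -0.66. The markers *Vwf*, at 1.10 and 0.29, and *Cspg4*, at -0.30 and -0.54, did not follow. None of the markers in these lists passed the adjusted threshold, and the part of such cells in the *Jag1* levels was not tested. In bulk RNA, fewer cells of a kind and less RNA in each cell cannot be told apart.

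*Jag2*, a further Jagged ligand of epidermis (chr12:112907819-112929776, minus strand), was at 376 and 325 CPM in the WT unwounded libraries and at 317 and 296 CPM in the WT wounded libraries. It was at 373 CPM in the cKO unwounded library and at 281 and 310 CPM in the cKO wounded libraries. All 4 wounded libraries were therefore below all 3 unwounded ones, which held for *Jag2* alone of the 10 members and for 6.44% of tested genes in either direction. Over both genotypes the log2 fold change was -0.24 (95% interval -0.50 to 0.02), with an adjusted p of 0.774 in edgeR. Without the cKO unwounded library that value was -0.17. Of 8 hair follicle markers, 3 were also lower in all wounded than in all unwounded libraries, *Lhx2*, *Cd34* and *Lgr5*, at log2 fold changes of -0.90, -1.04 and -0.75 over both genotypes. In the other 5 the groups overlapped, among them *Krt79*, the bulk of the list, at -0.22, *Sox9* at -0.37, and *Krt75*, which was higher at 0.99. The WT contrast does not compare the cKO unwounded library. There *Krt79* was lower with groups apart, at -0.48, as were *Lhx2* at -0.87, *Cd34* at -0.74 and *Lgr5* at -0.27. Fitted values in WT were higher for 3 of the 8 follicle markers, beside 7085 of 14045 tested genes. Fitted values over both genotypes were also lower for 5 of 6 suprabasal and 4 of 5 granular markers, beside 6770 of 14045 tested genes. The groups were apart for *Sbsn* at -0.47 and *Klk5* at -0.69, as for *Pdgfra* of the fibroblast list at -1.28. None passed the adjusted threshold, and the part of follicle or differentiated cells in the *Jag2* levels was not tested.

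*Dll1*, a Delta-like ligand known from keratinocyte stem cells (chr17:15367354-15376872, minus strand), was at 92.5 and 82.7 CPM in the WT unwounded libraries and at 99.0 and 95.9 CPM in the WT wounded libraries. It was at 89.4 CPM in the cKO unwounded library and at 101 and 77.5 CPM in the cKO wounded libraries. The cKO wounded pair thus held both the highest and the lowest value of the 7, and spanned the WT wounded pair. A long noncoding RNA gene overlaps *Dll1* on the other strand.

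The ratio of *Jag1* to *Jag2* per length, a measure chosen after the values were seen and given as a description, was 0.796 and 0.959 for unwounded WT, against 1.19 and 1.39 for wounded WT keratinocytes. It stood at 0.877 in the cKO unwounded library and 1.06 and 0.959 in the cKO wounded libraries. *Jag1* exceeded *Jag2* per length in both WT wounded libraries and in cKO wounded replicate 1, and was below it in the other 4. As a share of the ligand level per length, *Jag1* ran from 36.1% to 47.5%, *Jag2* from 34.2% to 45.4% and *Dll1* from 17.4% to 22.3%, while *Dll4*, a ligand known from endothelium, gave at most 0.111% on 0 to 7 counts.

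*Lfng* encodes Lunatic fringe, which adds a sugar to Notch receptors in the Golgi and shifts their response from Jagged towards Delta-like ligands (chr5:140607320-140615545, plus strand). It was at 32.5 and 25.4 CPM in the WT unwounded libraries and at 19.0 and 22.8 CPM in the WT wounded libraries. It was at 20.004 CPM in the cKO unwounded library and at 17.5 and 21.6 CPM in the cKO wounded libraries. The 2 WT unwounded libraries were the highest of the 7, and the lone cKO unwounded library lay among the wounded ones. The WT contrast had a log2 fold change of -0.45 (95% interval -1.02 to 0.13) with an adjusted p of 0.984 in edgeR, so the separation did not pass the test.

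*Rbpj* encodes the DNA-binding protein that carries the Notch intracellular domain on target genes and represses them when that domain is absent (chr5:53466152-53657362, plus strand). It was at 86.0 and 64.5 CPM in the WT unwounded libraries and at 83.3 and 77.9 CPM in the WT wounded libraries. It was at 79.3 CPM in the cKO unwounded library and at 80.3 and 72.6 CPM in the cKO wounded libraries. The WT unwounded pair held the highest and the lowest value, so all other libraries lay between them, and no contrast set groups apart. Antisense genes overlap *Rbpj* too.

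The target *Hes1* varied more than any other member with over 100 counts in each library. *Hes1*, a repressor of the basic helix-loop-helix family (chr16:30064384-30067796, plus strand), was at 120 and 134 CPM in the WT unwounded libraries and at 168 and 157 CPM in the WT wounded libraries. It was at 353 CPM in the cKO unwounded library and at 256 and 149 CPM in the cKO wounded libraries. The cKO unwounded level was 2.78 times the WT unwounded mean, with 1 library on the cKO side and no replicate check, and both cKO wounded libraries were below it. Both WT wounded libraries were above both WT unwounded ones.

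In WT the log2 fold change of *Hes1* with wounding was 0.38 (SE 0.22, 95% interval -0.09 to 0.85), with an unadjusted P of 0.102 and an adjusted p of 0.984 in edgeR. Between cKO and WT wounded libraries it was 0.35 (95% interval -0.11 to 0.82), with an adjusted p of 1, and the groups overlapped because cKO wounded replicate 2 was below both WT wounded libraries. Without cKO wounded replicate 1 this value was -0.12, and without cKO wounded replicate 2 it was 0.71 (unadjusted P of 0.00202), so the direction rested on replicate 1. Over both genotypes the wound contrast was -0.11, and it was 0.39 without the cKO unwounded library and 0.11 without cKO wounded replicate 2.

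*Hey1*, a related repressor (chr3:8663359-8667256, minus strand), was at the edge of detection. It had 4 and 6 counts in the WT unwounded libraries, 3 and 0 in the WT wounded libraries, 12 in the cKO unwounded library, and 6 and 9 in the cKO wounded libraries. It reached the filter level in 1 library, the cKO unwounded one, and passed the filter through that library alone. A library with 0 counts allows a level of up to 0.195 CPM (3 counts in WT wounded replicate 2, counting error only). The WT unwounded libraries were at 0.258 and 0.357 CPM, values with counting error of their own, so this bound does not place WT wounded below WT unwounded. The fitted contrasts had 95% intervals of -6.61 to 3.32 in WT and -2.61 to 7.42 between cKO and WT wounded libraries, so no fold was detectable at this depth.

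**Figure D2:**
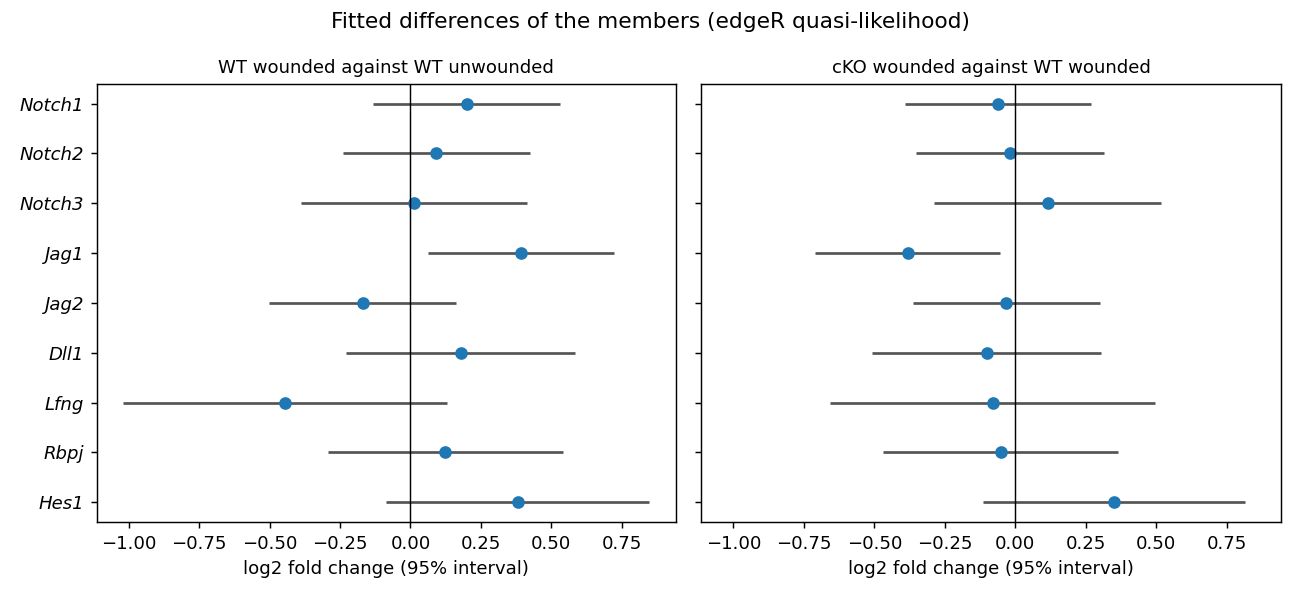
Points are fitted log2 fold changes and lines their 95% intervals, for WT wounded against WT unwounded (left) and cKO wounded against WT wounded (right), 2 libraries a group, with the shared WT wounded libraries in both panels. *Jag1* is the gene whose interval leaves out 0 in each panel, at 0.06 to 0.72 and -0.71 to -0.05, and *Hey1* is not drawn because its intervals run from -6.61 to 7.42.

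Across the members, 1 of 10 (*Jag1*) had an unadjusted P under 0.05 for wounding in WT, against 680 of 14045 tested genes (4.84%), and 0 of 10 had an adjusted p under 0.05, against 4 genes (0.0285%). Their median log2 fold change was 0.11, beside 0.00 for all tested genes, and 7 of the 10 had groups that did not overlap, against 33.5% of tested genes. Of those 7, *Notch1*, *Jag1*, *Dll1* and *Hes1* were higher in wounded libraries and *Jag2*, *Hey1* and *Lfng* lower. For *Hey1* this rests on 3 and 0 counts in wounded against 4 and 6 in unwounded libraries, at the edge of detection.

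Between cKO and WT wounded libraries, 1 of 10 (*Jag1*) again had an unadjusted P under 0.05, against 567 genes (4.04%). The members had a median log2 fold change of -0.04 beside -0.01 for all tested genes, and 2 of the 10 (*Jag1* lower, *Hey1* higher) had groups that did not overlap, against 30.9%. For *Hey1* this again rests on few counts, 6 and 9 in cKO wounded against 3 and 0 in WT wounded libraries. No gene of the 14045 (0%) had an adjusted p under 0.05 in edgeR's quasi-likelihood test, while DESeq2 called 3 genes and edgeR's likelihood ratio test 1, and no member was called by either.

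Over both genotypes, 0 of 10 members had an unadjusted P under 0.05, against 929 genes (6.61%), and 0 an adjusted p under 0.05, against 5 genes (0.0356%). The lowest adjusted p of a member was 0.774, for *Jag2*. DESeq2 called 126 genes in this contrast and edgeR's likelihood ratio test 117, and neither called a member.

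Within cKO the unwounded side has no replicate, so the wound contrast is given without a p-value. Of the 10 members, 0 differed by 2-fold or more, in a shared direction, in both cKO wounded libraries, against 1346 of 14045 genes (9.58%). *Hes1* had log2 differences of -0.44 and -1.29 from the unwounded library, so it passes once cKO wounded replicate 1 is left out. *Notch1*, *Notch3* and *Hes1* were each highest of the 7 libraries in the cKO unwounded one, where 16.7% of tested genes were highest. *Hey1* was highest there too, but had to be to pass the filter, so it is not set against that share. *Notch2* was lowest there, 1 of 10 against 19.7%. The difference between the cKO and WT wound contrasts had an unadjusted P under 0.05 for 2 of 10 members, *Jag1* and *Hes1*, against 6.77% of tested genes, and an adjusted p under 0.05 in edgeR for 0 of 10, against 0.185%. These P values have no replicate of the cKO unwounded library behind them, and genotype, sex and library cannot be told apart in them. In 3 of 10, *Notch1*, *Jag1* and *Hes1*, the wounded libraries lay apart from the unwounded in opposite directions in WT and cKO, against 10.6%.

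The other pathway genes were read from lists by role. Outside the 10 members and apart from epidermal genes linked to Notch, they came to 54 genes, of which 46 were tested. In WT, 3 of the 46 were higher and 2 lower with wounding at an unadjusted P under 0.05, beside 4.84% of all tested genes. Between cKO and WT wounded libraries 1 was higher and 0 lower, beside 4.04%, and over both genotypes 1 was higher and 5 lower, beside 6.61%. None passed the adjusted threshold in edgeR's quasi-likelihood test in any of these contrasts.

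*Dlk2*, a Delta-like homologue that lacks the receptor-binding DSL domain, was at 26.5 and 16.5 CPM in the WT unwounded, 10.1 and 7.005 CPM in the WT wounded, 27.3 CPM in the cKO unwounded, and 18.5 and 12.6 CPM in the cKO wounded libraries. Its log2 fold change was -1.30 with wounding in WT (unadjusted P of 0.00173, adjusted p of 0.449) and 0.89 between cKO and WT wounded libraries (unadjusted P of 0.0209, adjusted p of 1). *Dlk2* overlaps *Abcc10*, so reads of the pair could be mixed. Its relative *Dlk1* had 17 and 40 counts in the WT unwounded, 2 and 0 in the WT wounded, 34 in the cKO unwounded, and 1 and 0 in the cKO wounded libraries. All 4 wounded libraries were thus at or under the level that 3 counts give, and *Dlk1* had an adjusted p of 0.238 over both genotypes.

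*Poglut1*, which adds O-glucose to Notch receptors, was at 10.5 and 15.2 CPM in the WT unwounded, 20.7 and 19.7 CPM in the WT wounded, 15.3 CPM in the cKO unwounded, and 20.95 and 16.5 CPM in the cKO wounded libraries. All 4 wounded libraries exceeded all 3 unwounded ones, with a log2 fold change of 0.52 and an adjusted p of 0.723. *Dtx4*, a Deltex ubiquitin ligase, had a log2 fold change of -0.75 with wounding over both genotypes (adjusted p of 0.409). The same contrast gave -0.45 for the coactivator *Maml2* (adjusted p of 0.644) and -0.33 for *Neurl1b*, a ubiquitin ligase for ligands (adjusted p of 0.615). For *Dtx4* and *Maml2* all wounded libraries were below all unwounded ones, while for *Neurl1b* the groups overlapped. The WT contrast, which does not compare the cKO unwounded library, was 0.68 for *Poglut1*, -0.67 for *Dtx4*, -0.24 for *Maml2*, -0.34 for *Neurl1b* and -4.63 for *Dlk1*. *Aph1c*, a gamma-secretase subunit, had 2 and 1 counts in the WT unwounded and 29 and 16 in the WT wounded libraries, but 17 in the cKO unwounded against 5 and 27 in the cKO wounded ones. *Neurl3*, a ubiquitin ligase gene, had 0 and 0 against 6 and 22 in WT, and 4 against 1 and 14 in cKO, so both genes rest on few counts.

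The most abundant genes per length of several other lists had no unadjusted P under 0.05 in the 3 contrasts. These were the metalloprotease *Adam10*, which cuts the receptor ahead of gamma-secretase, at 26.6 CPM per kb, the fringe *Rfng* at 19.6 CPM per kb and the ubiquitin ligase *Nedd4* at 67.4 CPM per kb, as means over the 7 libraries. Their log2 fold changes over both genotypes were 0.17 for *Adam10*, 0.36 for *Rfng* and -0.12 for *Nedd4*. Of the 9 Hes and Hey genes, 4 were tested, *Hes1* was the most abundant, and *Hes5* had no count in any library.

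Of the 10 epidermal genes linked to Notch in keratinocytes, 3 were lower with wounding in WT at an unadjusted P under 0.05, beside 4.84% of all tested genes in either direction, and the same number were higher in cKO than in WT wounded libraries, beside 4.04%. Over both genotypes 0 were higher and 2 lower, beside 6.61%. In WT and between the wounded groups they were *Krt1* and *Krt10*, keratins of suprabasal cells, and *Cebpa*, a transcription factor of differentiating keratinocytes, in contrasts that share the WT wounded libraries. *Krt10* was at 2469 and 2336 CPM in the WT unwounded, 1469 and 1986 CPM in the WT wounded, 4259 CPM in the cKO unwounded, and 2739 and 3520 CPM in the cKO wounded libraries. Its log2 fold change between cKO and WT wounded libraries was 0.87, with an unadjusted P of 6.53e-05 and an adjusted p of 0.459. *Krt1* had log2 fold changes of -0.66 and 0.77 and *Cebpa* of -0.38 and 0.44 in the same order of contrasts, and none of the 3 genes passed the adjusted threshold.

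The 6 genes of the suprabasal marker list, which shares *Krt1* and *Krt10* with the list above, summed to 6379 and 7051 CPM in the WT unwounded, 3726 and 5456 CPM in the WT wounded, 9576 CPM in the cKO unwounded, and 6835 and 8465 CPM in the cKO wounded libraries, with *Krt1* the most abundant except in the cKO unwounded library, where *Krt10* was, and no marker at 0. The sum was highest in the cKO unwounded library, as *Hes1* was, mainly through *Krt1* and *Krt10*, while *Krtdap* and *Dsc1* were not high there. In WT the sum was lower and *Hes1* higher in the wounded libraries, and of the cKO wounded libraries the sum was lower in the replicate with more *Hes1*. The part of differentiated cells in the *Hes1* and *Jag1* levels was not tested.

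Among 9017 genes with a mean log2 CPM of at least 3, the levels most like those of *Hes1* over the 7 libraries were *Atg13*, *Sipa1l2* and *Dusp1*, with Pearson r of 0.987, 0.983 and 0.979. *Dusp1*, a phosphatase gene quickly induced by stress and growth factors, was at 573 and 533 CPM in the WT unwounded, 637 and 668 CPM in the WT wounded, 1489 CPM in the cKO unwounded, and 1027 and 684 CPM in the cKO wounded libraries. Its order of groups was that of *Hes1*, with the cKO unwounded library far above the rest. The genes most like *Hey1* were *Irf5*, *Esyt3* and *Zscan22*, with r of 0.996, 0.970 and 0.966, which for *Hey1* rests on 0 to 12 counts. These values describe 7 libraries that share groups, and carry no p.

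Open chromatin was compared through the peaks that the authors called in each condition, with 1 list per condition and no replicate. The lists held 10769 peaks for WT unwounded, 36872 for WT wounded, 29364 for cKO unwounded and 22474 for cKO wounded keratinocytes. A peak lay in or within 5 kb of 4, 10, 9 and 6 of the 10 members in that order, against 50.7%, 84.6%, 81% and 68.8% of 13509 tested genes with an annotation match. The members followed the background, and both followed list length. When each list was held to its 10769 strongest peaks, the members with a peak numbered 4, 5, 5 and 4, against 50.7%, 45.1%, 47.4% and 45.3% of genes.

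Around the members the lists gave 31 separate regions, 14 in introns, 7 touching an exon, 5 upstream and 5 downstream. Of these, 8 were in all 4 lists and 11 in the WT wounded list alone. *Notch2*, *Jag1*, *Hey1* and *Rbpj* had a peak in all 4 lists, 4 of 10 members against 48% of tested genes. *Notch1*, *Notch3*, *Jag2*, *Dll1*, *Hes1* and *Lfng* had a WT wounded peak and no WT unwounded one, 6 of 10 against 34.2%. *Jag2* had peaks in the WT wounded list only, a pair of them in introns at fold enrichments of 3.22 and 3.27. Their −log10 q values were 1.60 and 1.73, and that of the only *Lfng* peak in the WT wounded list was 1.82. At a q of at most 0.01, *Jag2* and *Lfng* thus had no WT wounded peak. *Hes1* had 2 peaks in the WT wounded list, 1 in the cKO unwounded list and none in the others, and its stronger peak, just upstream of the gene at chr16:30063934-30064354, had a fold enrichment of 3.90.

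*Jag1* had 2 peaks in the WT unwounded list, 6 in WT wounded, 3 in cKO unwounded and 3 in cKO wounded. Those in all 4 lists were an intronic region at chr2:137097945-137098920 and a region at chr2:137116660-137117583 that ended 16 bases upstream of the gene's start. The intronic region had fold enrichments of 3.97, 5.68, 4.99 and 4.69 in the order WT unwounded, WT wounded, cKO unwounded and cKO wounded. The upstream region had 3.50, 4.50, 4.46 and 4.56. Both were lowest in WT unwounded keratinocytes, whose list was the shortest. Fold enrichment is measured against the background of the same library and is not scaled between libraries, so these values are set side by side without a test.

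**Figure D3:**
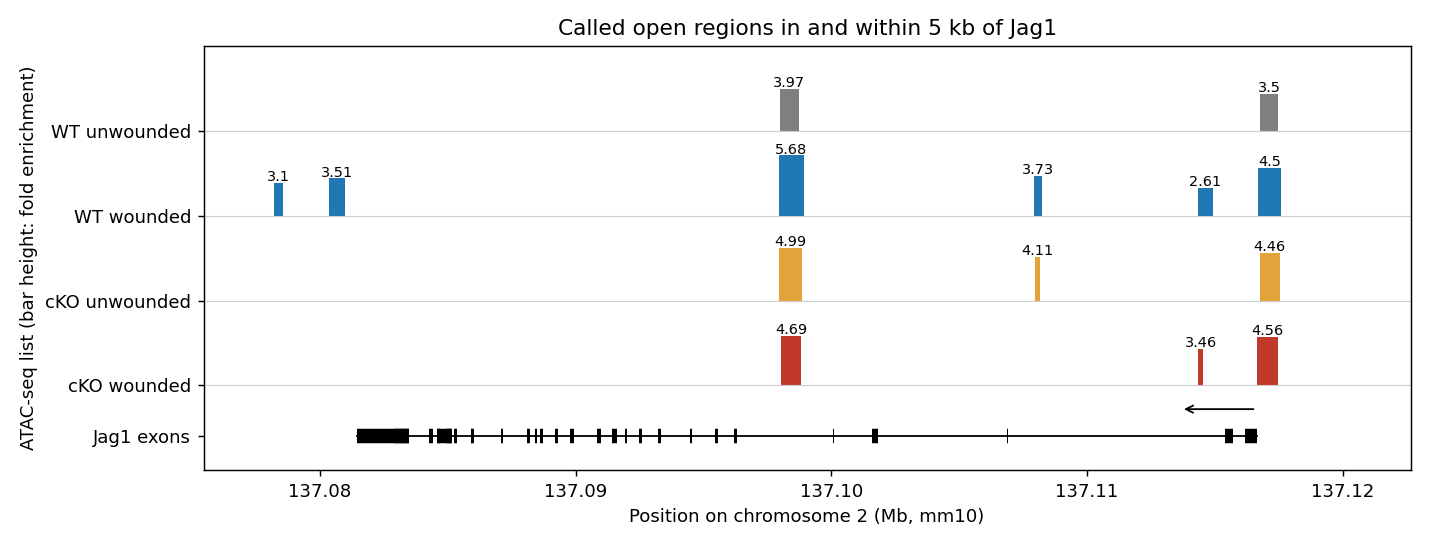
Bars are the peaks called in and within 5 kb of *Jag1* in the 4 ATAC-seq lists, drawn at their position on chromosome 2 (Mb, mm10), with the height and the printed number giving the fold enrichment, above the exons of the gene, which is transcribed from right to left. The intronic region and the region next to the start are in all 4 lists, and the WT wounded list has 6 peaks against 2 in WT unwounded.

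*Notch2* had 3, 7, 5 and 4 peaks in the same order and *Rbpj* 3, 5, 4 and 4. The strongest *Notch2* region, at chr3:98098663-98099807 inside the gene, had fold enrichments of 5.04, 5.58, 6.48 and 6.12. The widest *Rbpj* region, at chr5:53588786-53590656, joined peaks over a start of the gene with peaks just upstream. The peaks that covered the start had 4.15, 4.14, 4.34 and 4.28. *Hey1*, which had almost no RNA, had a region over its start at chr3:8666849-8667841 in all 4 lists, with 3.71, 4.91, 4.25 and 4.73, so a called region was present in each condition without appreciable transcript.

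The RefSeq promoter table (GRCm38.p6, the build of mm10) held 8 of the 10 members with 10 windows, each from 250 bases before to 50 after a start, while *Hes1* and *Hey1* had no entry. Windows were searched for the RBPJ core TGGGAA, which reads TTCCCA on the other strand, for its longer form GTGGGAA, which contains the core and reads TTCCCAC on the other strand, and for the GRHL core AACNNGTT, which reads the same on both strands. The core was in 25.6% of 32851 promoter windows, the longer form in 6.38% and the GRHL core in 4.204%. Among the members, the first *Rbpj* window held 2 copies of the RBPJ core and the *Lfng* window 2, of which 1 was the longer form. The second *Rbpj* window, which overlaps the first, held 1 copy of the core, and it is 1 of the 2 copies already counted in the first. The other member windows held none. No member window held the GRHL core, which says only that these letters are not in these windows.

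In 300-base windows about the midpoint of the regions near the 8 members, the RBPJ core was in 9 of the 26 windows with a WT wounded peak and the longer form in 5 of 26, against 27.2% and 7.46% of 36870 such windows over all WT wounded peaks. The GRHL core was in 0 of 26, against 6.54%. The windows shown are the 3 intronic ones found in at least 2 lists that hold the longer form, because they are where open chromatin in a ligand or receptor gene and the letters read by RBPJ coincide. They are given on the plus strand of mm10, with the longer form in capitals, and a match is a description and not a bound site.
Jag1 intron, chr2:137098283-137098582, in all 4 lists: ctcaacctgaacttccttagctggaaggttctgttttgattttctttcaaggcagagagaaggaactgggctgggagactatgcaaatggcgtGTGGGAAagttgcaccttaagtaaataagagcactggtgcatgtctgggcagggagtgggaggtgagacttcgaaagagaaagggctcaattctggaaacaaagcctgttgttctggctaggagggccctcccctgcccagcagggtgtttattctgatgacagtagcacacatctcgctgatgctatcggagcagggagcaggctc
Jag1 intron, chr2:137107923-137108222, in the WT wounded and cKO unwounded lists: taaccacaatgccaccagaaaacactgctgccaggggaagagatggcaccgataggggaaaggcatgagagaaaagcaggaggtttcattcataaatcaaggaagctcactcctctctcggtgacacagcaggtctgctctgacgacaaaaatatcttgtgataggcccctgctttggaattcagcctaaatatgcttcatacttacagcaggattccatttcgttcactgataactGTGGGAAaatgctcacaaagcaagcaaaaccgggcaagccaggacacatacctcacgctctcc
Notch3 intron, chr17:32162270-32162569, in the WT wounded and cKO unwounded lists: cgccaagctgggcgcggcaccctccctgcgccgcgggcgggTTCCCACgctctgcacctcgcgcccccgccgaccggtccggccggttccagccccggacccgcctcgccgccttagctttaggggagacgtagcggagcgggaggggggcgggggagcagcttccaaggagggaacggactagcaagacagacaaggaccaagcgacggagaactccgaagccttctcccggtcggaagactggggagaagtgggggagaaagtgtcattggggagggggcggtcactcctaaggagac

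The *Rbpj* window lay upstream of the same start. Its 118 bases before the first annotated exon there, at chr5:53590096-53590213 on the plus strand, are shown with the RBPJ core in capitals, because the gene encodes the protein that reads these letters. The stretch lay inside a WT wounded and a cKO unwounded peak, its end with the core lay in a cKO wounded peak, and it lay between 2 WT unwounded peaks and in neither.
Rbpj upstream: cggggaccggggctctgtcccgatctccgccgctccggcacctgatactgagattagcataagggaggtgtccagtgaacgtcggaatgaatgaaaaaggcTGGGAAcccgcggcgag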

How the data were processed

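RNA-seq values are the raw counts per gene symbol that the authors deposited for 7 libraries. The study's methods and the submitters' processing notes name FastQC, kallisto and mm10, but the closing rows of the tables have the names that an HTSeq-type counter writes, so the counter is not known. Closing rows that name no gene were left out of library sizes: reads not uniquely placed came to 3.46% to 4.74% of all rows and ambiguous reads to 1.34% to 1.45%. The ATAC-seq peaks were called by the authors with MACS2 after bowtie2 alignment to mm10, with 1 deposited list per condition and no control library, as the peak names say. The deposited lists give a score, a fold enrichment (a ratio to the local background of the same library) and −log10 p and q values for each peak, and the score was not used.

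Counts were normalized by TMM and filtered with filterByExpr (edgeR 4.0.16, R 4.3.3), which left 14045 genes. The filter's level was met by 1 library where a group has 1. A quasi-likelihood model with 4 groups gave the contrasts of WT wounded against WT unwounded and of cKO wounded against WT wounded, with Benjamini-Hochberg adjustment over all tested genes. The contrast over both genotypes used an additive model of genotype and wounding. A group of 1 library takes its spread from the others. The difference between the wound contrasts was fitted in the same model. The steps were tested on simulated counts with an assumed dispersion of 0.1, where 4 of 100 genes given a 2-fold difference and 66 of 100 given a 4-fold difference had an adjusted p under 0.05. The members' own spread was not simulated, so these shares do not give the fold that could be detected in a member. DESeq2 1.42.0 served as an alternative. CPM used the total counts on genes, and exon lengths and coordinates came from GENCODE annotation of mm10. Pearson r used log2 CPM with a prior count of 2.

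Members and lists were chosen with earlier results of these data known. Named genes are all members, pathway genes with an unadjusted P under 0.05 in any of the 3 contrasts, the most abundant gene per length of several lists, *Grhl3*, marker genes, and the 3 genes most like *Hes1* and *Hey1*. Also named are *Notch4*, *Dll4*, *Hes5*, *Xist*, the Y-linked genes, and *Abcc10*, which overlaps *Dlk2*. Alternatives covered scaling, test, filter, libraries in the fit, the replicate number as a block, each library left out, the prior count, peak thresholds, distance and overlap.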

Additional observations from a re-analysis of the deposited data

Results flagged for a closer look

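In 3 of the 10 members, both WT wounded libraries were above both WT unwounded ones while both cKO wounded libraries were below the lone cKO unwounded library, which held in either order for 1486 of 14045 tested genes (10.6%). The difference between the wound responses, cKO minus WT on the log2 scale, was -1.18 for *Hes1*, -0.54 for *Jag1* and -0.34 for *Notch1* in edgeR's quasi-likelihood model. No p-value is given, since the cKO unwounded side has no replicate. Every such value rests on the 1 cKO unwounded library, which differs from the others in *Xist* and Y-linked counts, and cannot be had without it.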

How the results depend on the processing

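Settings were compared for the contrasts within WT, between cKO and WT wounded libraries, and over both genotypes. In these 3 contrasts no member had an adjusted p under 0.05 under any setting run. The lowest was 0.553, for *Jag1* in WT by edgeR's likelihood ratio test. *Jag1* kept its direction in all 3 contrasts (0.31 to 0.46 in WT, -0.45 to -0.30 between cKO and WT wounded libraries). In WT the values ran from 0.095 to 0.31 for *Notch1*, 0.31 to 0.46 for *Hes1*, -0.62 to -0.24 for *Lfng* and -0.28 to -0.050 for *Jag2*, and over both genotypes from -0.31 to -0.17 for *Jag2*. Over all settings, the members with an unadjusted P under 0.05 numbered 0 to 2 in WT (*Jag1*, *Hes1*), 0 to 2 between cKO and WT wounded libraries (the same genes) and 0 to 1 over both genotypes (*Jag1* or *Jag2*, each on leaving out a library). Over all settings and members, 143 values in WT, 135 between cKO and WT wounded libraries and 133 over both genotypes kept their direction, and 4, 12 and 5 were reversed. With library totals alone, *Notch3* in WT was -0.014. The other reversals came from leaving out a library. In WT the ranges were -0.17 to 0.16 for *Notch3* and -0.080 to 0.36 for *Rbpj*. Between cKO and WT wounded libraries they were -0.19 to 0.066 for *Notch1*, -0.071 to 0.047 for *Notch2*, -0.087 to 0.30 for *Notch3*, -0.065 to 0.013 for *Jag2*, -0.33 to 0.11 for *Dll1*, -0.12 to 0.71 for *Hes1*, -0.16 to 0.056 for *Rbpj* and -0.21 to 0.075 for *Lfng*. Over both genotypes they were -0.025 to 0.20 for *Notch1*, -0.23 to 0.017 for *Notch3*, -0.28 to 0.39 for *Hes1* and -0.070 to 0.14 for *Rbpj*. Apart from the library left out, the cause was not tested.

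Counts of genes with an adjusted p under 0.05 were 4 in WT, 0 between cKO and WT wounded libraries and 5 over both genotypes in edgeR's quasi-likelihood test, where 680, 567 and 929 genes had an unadjusted P under 0.05. DESeq2 gave 24, 3 and 126, edgeR's likelihood ratio test 49, 1 and 117, and no filter on low counts 96, 51 and 305. A minimum of 10 counts in every library gave 0 in WT and 2 over both genotypes, and a fit on the compared libraries alone gave 0 in WT. Leaving out a library gave 0 to 29, 0 to 21 and 0 to 119. The likelihood ratio test gave 1117 and 873 genes at an unadjusted P under 0.05 in WT and between cKO and WT wounded libraries, and leaving out a library gave 420 to 855 in the latter. Leaving out a cKO wounded library gave 0 to 1 members at least 2-fold from the unwounded one.

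With the replicate block the adjusted counts were 6, 0 and 4. Deviations of same-numbered libraries had a correlation of 0.154 between the WT groups and -0.0386 between the wounded groups.

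Members with a peak within 5 kb numbered 2 in WT unwounded (34.9% of genes) and 6 in WT wounded (69.3%) at a fold enrichment of at least 4, and 5 in WT wounded (45.1%) and 5 in cKO unwounded (47.4%) with lists of equal length, so the shares of all genes were lower as well. At a q of at most 0.01 such members numbered 4 in WT unwounded (43.5% of genes) and 8 in WT wounded (79.9%).

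These values carry limits. Groups hold 2 libraries, or 1 for unwounded cKO, and no member passed the test over all genes. The lone cKO unwounded library differs from the rest in *Xist* and Y-linked counts, so genotype, wounding within cKO, sex and library cannot be told apart there. The *Grhl3* counts do not check the genotype labels. The peak lists have no replicates and differ in length. RNA levels say nothing on receptor cleavage or on the activity of the pathway, which was not measured.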
